A study of Mus musculus with 2 samples.

Results

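The genes described here are 10 inducible inhibitors of signals from outside the cell, of 32285 genes counted in the series. They were chosen by symbol: the SOCS family members Cish, Socs1, Socs2 and Socs3, the dual-specificity phosphatases Dusp2, Dusp4 and Dusp5, and the regulators of G-protein signalling Rgs1, Rgs2 and Rgs16. Each symbol was present in both libraries. The libraries hold messenger RNA of single cells from tumours of C57BL/6 mice, sorted for the leukocyte protein CD45 and for CD90.2, a form of the Thy1 protein found on T cells and innate lymphoid cells. One library carries the genotype label Dapl1-KO, a deficiency of Dapl1, and 1 library carries the label WT (wild type). Both labels give the same strain and sort, and the sources used here give no treatment, age, tumour type, targeting allele or number of animals. The design asks how the expression profile of T cells inside tumours differs without Dapl1. With 1 library per label there is no replicate, so no test between labels exists, and every interval given is a 95% interval for counting error only.

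Cytokine receptors signal through JAK kinases and STAT transcription factors. STAT proteins switch on SOCS genes, whose products then bind the receptor or the kinase and shut the signal off, which makes a negative feedback loop. CIS, the product of Cish, and SOCS2 act mainly on receptors that use STAT5. SOCS1 inhibits JAK kinases below interferon and common gamma-chain receptors, and SOCS3 acts on receptors of the interleukin-6 family. Dual-specificity phosphatases remove phosphate from MAP kinases: DUSP2, DUSP4 and DUSP5 are nuclear enzymes induced by antigen receptor and growth signals, and DUSP5 is selective for ERK. RGS proteins speed the return of G-protein alpha subunits to the inactive state and so shorten responses to chemokines. RGS1 and RGS16 act on the Gi class that chemokine receptors use, and RGS2 acts preferentially on Gq.

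Each captured molecule counts once, by its unique molecular identifier (UMI), so levels do not scale with gene length. The deposited tables hold 19662 barcodes with 206322042 UMIs labelled Dapl1-KO and 16673 barcodes with 154408101 UMIs labelled WT. The 2 libraries share 13132 barcodes, and only the larger copy was kept. After filtering, 10098 cells labelled Dapl1-KO had a median of 8464 UMIs and 8992 cells labelled WT had a median of 7356 UMIs, and no barcode was left in both. Cells were gated on messages of lineage and state genes that do not include the 10 genes. The 4 broad gates held 5442 CD8 T, 564 conventional CD4 T, 739 regulatory T and 489 NK cells labelled Dapl1-KO, and 4375, 568, 637 and 389 such cells labelled WT. Levels are CPM: counts summed over a gate and scaled to a gate total of 1000000 UMIs. Markers that no gate used were summed for each gate: the NK list summed to 6486 CPM labelled Dapl1-KO and 5199 CPM labelled WT in NK cells, against 488 CPM labelled Dapl1-KO and 345 CPM labelled WT in CD8 T cells, and the regulatory T list summed to 5200 CPM labelled Dapl1-KO and 4065 CPM labelled WT in regulatory T cells, against 2389 CPM labelled Dapl1-KO and 1817 CPM labelled WT in conventional CD4 T cells. The naive list summed to 2180 CPM labelled Dapl1-KO and 2760 CPM labelled WT in naive or central memory CD8 T cells. In cycling CD8 T cells it summed to 123 CPM labelled Dapl1-KO and 138 CPM labelled WT. The cycling list summed to 794.5 CPM labelled Dapl1-KO and 578 CPM labelled WT in cycling CD8 T cells. It was at 13.5 CPM labelled Dapl1-KO and 14.0 CPM labelled WT in the naive CD8 gate. The conventional CD4, CD8 T and PD-1 TIM-3 lists did not single out their own gates. The PD-1 TIM-3 list summed to 3932 CPM labelled Dapl1-KO and 2278 CPM labelled WT in PD-1 TIM-3 CD8 T cells. In the granzyme D to G gate of CD8 T cells it summed to 9562 CPM labelled Dapl1-KO and 4523 CPM labelled WT. The NK list summed to 4838 CPM labelled Dapl1-KO and 3874 CPM labelled WT in myeloid cells. In naive or central memory CD4 T cells the naive list summed to 2035 CPM labelled Dapl1-KO and 2878 CPM labelled WT. The conventional CD4 list summed to 2408 CPM labelled Dapl1-KO and 1842 CPM labelled WT in its own gate and was higher in regulatory T cells, at 3290 CPM labelled Dapl1-KO and 2700 CPM labelled WT. The CD8 T list, at 11735 CPM labelled Dapl1-KO and 9151 CPM labelled WT in CD8 T cells, was higher in NK cells, at 14211 CPM labelled Dapl1-KO and 9589 CPM labelled WT. Dapl1 itself was at 186 CPM labelled Dapl1-KO and 176 CPM labelled WT in naive or central memory CD8 T cells, and at 28.7 CPM labelled Dapl1-KO and 40.0 CPM labelled WT in all CD8 T cells. The sources used here do not say which stretch was deleted, and tags at the 3′ end may lie outside it, so this does not check the labels. The libraries also differ in sex. Of CD8 T cells, 74.2% labelled Dapl1-KO and 14.6% labelled WT had a Y-linked UMI and neither of the X-inactivation RNAs Xist and Tsix, and 0.0919% labelled Dapl1-KO and 71.2% labelled WT had one of these RNAs and no Y-linked UMI.

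Promoters of 3 members are shown because Socs1 and Socs3 moved together across the populations below and because Cish is the textbook STAT5 target. Of the 10 genes, 7 had a promoter in the RefSeq table of GRCm38.p6, which gives 250 bases before the transcription start and 50 bases after it. The windows were searched on both strands for TTCNNNGAA, the core of the site that STAT dimers bind, and matches are in capitals.
Cish, chr9:107296409-107296708, plus strand: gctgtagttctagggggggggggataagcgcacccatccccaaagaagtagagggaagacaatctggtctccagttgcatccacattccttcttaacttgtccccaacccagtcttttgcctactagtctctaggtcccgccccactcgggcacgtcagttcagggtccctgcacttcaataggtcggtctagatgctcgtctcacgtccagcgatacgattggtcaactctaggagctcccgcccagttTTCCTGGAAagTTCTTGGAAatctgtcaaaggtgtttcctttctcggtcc
Socs3, chr11:117969317-117969616, minus strand: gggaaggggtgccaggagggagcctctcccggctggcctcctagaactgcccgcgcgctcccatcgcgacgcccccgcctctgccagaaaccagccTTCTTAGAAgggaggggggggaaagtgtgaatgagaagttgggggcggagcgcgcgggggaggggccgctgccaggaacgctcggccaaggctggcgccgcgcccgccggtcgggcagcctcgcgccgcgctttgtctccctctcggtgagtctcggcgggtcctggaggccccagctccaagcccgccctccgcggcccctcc
Socs1, chr16:10785487-10785786, minus strand: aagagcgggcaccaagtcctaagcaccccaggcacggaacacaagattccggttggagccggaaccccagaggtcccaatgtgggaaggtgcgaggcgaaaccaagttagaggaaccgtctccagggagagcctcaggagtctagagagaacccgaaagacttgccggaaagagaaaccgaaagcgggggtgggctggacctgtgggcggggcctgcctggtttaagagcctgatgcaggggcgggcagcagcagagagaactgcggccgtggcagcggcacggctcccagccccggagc
The Cish window holds 2 matches, which begin at bases 1 and 12 counted from the RefSeq start. The Socs3 window holds 1 match, which begins 154 bases before the RefSeq start, and the Socs1 window holds none. The gene spans given below come from another annotation, which sets other starts for Cish (chr9:107296026) and Socs3 (chr11:117970047). By those spans the Cish and Socs3 windows lie inside the genes. Of 32851 promoters in the table, 8.30% held at least 1 such match and 0.457% held at least 2. The other 4 windows (Dusp2, Dusp5, Rgs2 and Rgs16) held none. None of the 7 windows held TGACGTCA, the cyclic AMP response element, or TGANTCA, the AP-1 site, which 1.79% and 7.81% of all promoters hold. A match describes letters in this window and not a bound site.

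Socs1 and Socs3 were highest in the naive gates. In the library labelled Dapl1-KO, Socs3 (ENSMUSG00000053113, chr11:117966079-117970047 of GRCm38) was at 297 CPM in naive or central memory CD4 T cells and at 176 CPM in naive or central memory CD8 T cells. In the library labelled WT the same 2 populations had 335 and 321 CPM. In CD8 T cells with messages of both PD-1 (Pdcd1) and TIM-3 (Havcr2), the receptors that mark exhausted cells, Socs3 was at 37.8 CPM labelled Dapl1-KO and 40.7 CPM labelled WT. Socs1 (ENSMUSG00000038037, chr16:10782240-10785536) had the same shape, with 119 CPM labelled Dapl1-KO and 170 CPM labelled WT in naive or central memory CD8 T cells, and 37.1 CPM labelled Dapl1-KO and 36.6 CPM labelled WT in PD-1 TIM-3 CD8 T cells. Across 12 gated populations the log2 levels of both genes correlated at r = 0.945 in the library labelled Dapl1-KO and 0.966 in the library labelled WT, as a description of populations that share a library. PD-1 TIM-3 cells were also the deeper ones, with medians of 11058 UMIs labelled Dapl1-KO and 11376 UMIs labelled WT, against 9669 UMIs labelled Dapl1-KO and 7868 UMIs labelled WT in the naive gate.

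Cish was highest in activated CD4 T cells, at 128 CPM labelled Dapl1-KO and 120 CPM labelled WT, and next highest in regulatory T cells, at 103 CPM labelled Dapl1-KO and 92.1 CPM labelled WT. Naive or central memory CD8 T cells had 37.4 CPM labelled Dapl1-KO and 30.5 CPM labelled WT. Effector CD8 T cells without PD-1 stood above them at 99.0 CPM labelled Dapl1-KO and 70.5 CPM labelled WT. Cish (ENSMUSG00000032578, chr9:107296026-107302784) overlaps 2 unnamed gene models on the other strand, Gm17040 and Gm17041. Socs2 (ENSMUSG00000020027, chr10:95385362-95417180) was scarce. It stayed under 20 CPM in every CD8 state and was at 27.7 CPM labelled Dapl1-KO and 22.5 CPM labelled WT in activated CD4 T cells, at 22.8 CPM labelled Dapl1-KO and 29.0 CPM labelled WT in regulatory T cells, and at 19.8 CPM labelled Dapl1-KO and 42.9 CPM labelled WT in NK cells. The granzyme D to G gate of CD8 T cells, with 31 cells labelled Dapl1-KO and 39 labelled WT, had 1 Socs2 UMI labelled Dapl1-KO and 0 labelled WT.

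**Figure D1:**
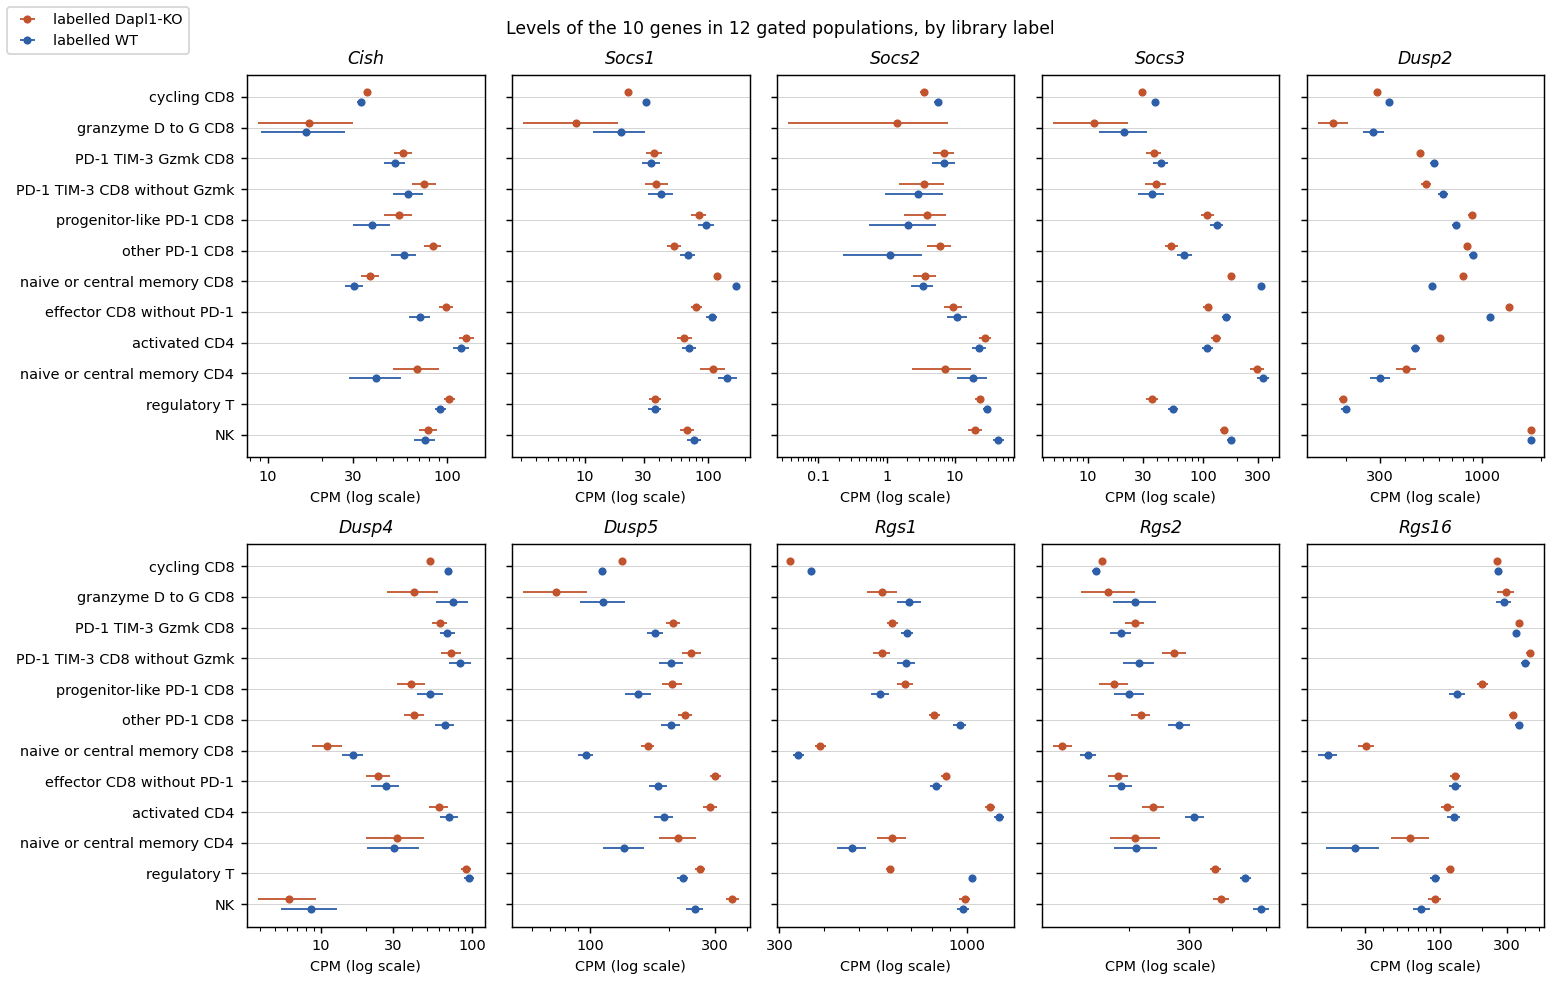
Level of each gene in CPM (log axis, range set for each panel) in 12 gated populations. Points are summed UMI counts of 1 library labelled Dapl1-KO (red, upper) or WT (blue, lower), lines are 95% counting intervals, and a level of 0 is not drawn. Socs1 and Socs3 are highest in the naive gates, Rgs16 in PD-1 TIM-3 CD8 T cells (433 CPM labelled Dapl1-KO and 403 CPM labelled WT without Gzmk) and Dusp2 in NK cells (1764 CPM labelled Dapl1-KO and 1778 CPM labelled WT).

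The phosphatases were placed differently from one another. Dusp2 (ENSMUSG00000027368, chr2:127336159-127338376) was the most abundant, at 1764 CPM labelled Dapl1-KO and 1778 CPM labelled WT in NK cells and at 1368 CPM labelled Dapl1-KO and 1099 CPM labelled WT in effector CD8 T cells without PD-1. Regulatory T cells had only 194 CPM labelled Dapl1-KO and 200 CPM labelled WT. Dusp4 (ENSMUSG00000031530, chr8:34807297-34819894) ran nearly the other way: it was highest in regulatory T cells, at 91.1 CPM labelled Dapl1-KO and 94.8 CPM labelled WT, and lowest in NK cells, at 6.13 CPM labelled Dapl1-KO and 8.59 CPM labelled WT. The correlation of log2 levels between Dusp2 and Dusp4 over the 12 populations was -0.67 in the library labelled Dapl1-KO and -0.61 in the library labelled WT. Dusp5 (ENSMUSG00000034765, chr19:53529109-53542431) was the most even of the DUSP genes, with a lowest, median and highest level of 73.8, 223 and 350 CPM labelled Dapl1-KO and 96.0, 179 and 251 CPM labelled WT. NK cells were at the top in both libraries. Dusp5 followed Cish, with r = 0.935 labelled Dapl1-KO and 0.826 labelled WT.

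Rgs16 (ENSMUSG00000026475, chr1:153740349-153745468) had the largest ratio between PD-1 TIM-3 and naive CD8 T cells of the 9 members at 20 CPM or more there. It was at 383 CPM labelled Dapl1-KO and 361 CPM labelled WT in PD-1 TIM-3 CD8 T cells, and at 30.3 CPM labelled Dapl1-KO and 16.2 CPM labelled WT in naive or central memory CD8 T cells. The progenitor-like PD-1 gate, which holds PD-1 cells with Tcf7 or Slamf6 and no TIM-3, was between them at 200 CPM labelled Dapl1-KO and 133 CPM labelled WT. Over the 12 populations Rgs16 ran against Socs3, at r = -0.75 labelled Dapl1-KO and -0.86 labelled WT. Rgs1 (ENSMUSG00000026358, chr1:144242296-144249242) was abundant in every population, between 321 and 1160 CPM labelled Dapl1-KO and between 339 and 1228 CPM labelled WT, with activated CD4 T cells at the top in both. Among the PD-1 CD8 gates it was highest in cells with neither TIM-3 nor Tcf7 or Slamf6, at 812 CPM labelled Dapl1-KO and 954 CPM labelled WT. Rgs2 (ENSMUSG00000026360, chr1:143999338-144004161) was highest in NK cells, at 372 CPM labelled Dapl1-KO and 484 CPM labelled WT, then in regulatory T cells, at 357 CPM labelled Dapl1-KO and 437 CPM labelled WT. It was lowest in naive or central memory CD8 T cells, at 128 CPM labelled Dapl1-KO and 152 CPM labelled WT.

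Over the 12 populations drawn above, which leave out the CD8 T cells that met no gate, 71 of 220 neighbouring pairs in the order of levels, counted over the 10 genes and both libraries, were apart by more than their counting intervals. Of 11 neighbouring pairs for each gene and library, Dusp2 had 7 apart labelled Dapl1-KO and 8 apart labelled WT, and Rgs1 had 6 apart labelled Dapl1-KO and 7 labelled WT. Socs1 and Dusp4 had 2 apart in each library and Cish had 3 apart labelled Dapl1-KO and 2 labelled WT. The other 5 genes had between 1 and 5 apart. At the top of the order, Dusp2 of NK cells (interval 1720 to 1808 CPM labelled Dapl1-KO and 1729 to 1828 CPM labelled WT) was clear of the next population in both libraries, as were Cish and Rgs1 of activated CD4 T cells. Rgs2 of NK cells was clear of regulatory T cells in the library labelled WT and not in that labelled Dapl1-KO, and Rgs16 of PD-1 TIM-3 CD8 T cells without Gzmk was clear of the next gate in the library labelled Dapl1-KO alone. Socs1 of the naive CD8 gate overlapped the naive CD4 gate in both.

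A gene was called different between populations where it was at least 2-fold higher or lower in both libraries, among genes at 20 CPM or more in at least 1 of the 4 sums. Between PD-1 TIM-3 and naive or central memory CD8 T cells, 15.2% of 4942 genes were called higher and 4.63% lower. Of 9 members at that level, Dusp4 and Rgs16 were called higher and Socs1 and Socs3 lower. Rgs16 was 12.7-fold higher in PD-1 TIM-3 cells labelled Dapl1-KO and 22.2-fold higher in those labelled WT. Dusp4 was 5.85-fold higher labelled Dapl1-KO and 4.47-fold higher labelled WT. Socs3 was 4.64-fold lower labelled Dapl1-KO and 7.88-fold lower labelled WT, and Socs1 was 3.21-fold lower labelled Dapl1-KO and 4.63-fold lower labelled WT. Dusp2 did not take the same direction in the 2 libraries, with a log2 ratio of -0.70 labelled Dapl1-KO and 0.07 labelled WT. The share of higher genes among the members, 2 of 9, stands near the share of all genes, and the share of lower genes stands above it. Of 15 immediate-early and handling genes in the same comparison, 6 were called lower and none higher, with a median log2 ratio of -0.72 labelled Dapl1-KO and -1.62 labelled WT, and their part in the Socs1 and Socs3 values was not tested.

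Between regulatory T and conventional CD4 T cells, 2.19% of 5302 genes were called higher and 2.21% lower. None of the 10 members was called higher, and Socs3 and Dusp2 were called lower. The Dusp2 call ended with doublets kept, with gates read on thinned cells and with the mean over cells. Of 15 immediate-early and handling genes, 3 were called lower as well and none higher, with a median log2 ratio of -0.99 labelled Dapl1-KO and -0.93 labelled WT, and their part was not tested. Socs3 was at 36.3 CPM in regulatory T cells and 160 CPM in conventional CD4 T cells labelled Dapl1-KO, and at 54.8 and 161 CPM in those labelled WT. Dusp2 was 2.95-fold lower in regulatory T cells labelled Dapl1-KO and 2.10-fold lower in those labelled WT. Socs1 passed 2-fold in the library labelled WT, at 2.36-fold lower, and was 1.95-fold lower in the library labelled Dapl1-KO. Rgs1 gave unlike ratios, with log2 values of -0.80 labelled Dapl1-KO and -0.03 labelled WT.

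Between NK and CD8 T cells, 6.30% of 5205 genes were called higher and 7.30% lower. Of the 10 members, Socs2, Dusp2, Dusp5, Rgs1 and Rgs2 were called higher in NK cells, and Dusp4 and Rgs16 were called lower. The Dusp5, Rgs1 and Rgs2 calls each ended under at least 1 other processing, and those of Dusp5 and Rgs1 with the mean over cells. Of 15 immediate-early and handling genes, 8 were called higher in NK cells too and none lower, with a median log2 ratio of 1.22 labelled Dapl1-KO and 1.05 labelled WT, and their part was not tested. Dusp2 was 3.95-fold higher in NK cells labelled Dapl1-KO and 3.79-fold higher in those labelled WT. Socs2 was 4.62-fold higher labelled Dapl1-KO and 7.91-fold higher labelled WT, on 71 UMIs labelled Dapl1-KO and 120 UMIs labelled WT in NK cells. Dusp4 was 7.80-fold lower labelled Dapl1-KO and 6.81-fold lower labelled WT. Dusp5 and Rgs1 passed the limit narrowly in the library labelled WT, at 2.0-fold and 2.11-fold higher. The CD8 T sum is mostly made of cycling cells, which gave 70.5% of its UMIs labelled Dapl1-KO and 60.9% labelled WT.

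Between the libraries, a gene was called where its CPM labelled Dapl1-KO was at least 1.5-fold above or below its CPM labelled WT, among genes at 20 CPM or more in at least 1 library. In CD8 T cells, 1.69% of 4662 genes were called lower and 3.24% higher. Of 9 members at that level, Socs1 and Socs3 were called lower and none was called higher. Socs3 was at 49.3 CPM labelled Dapl1-KO (4711 UMIs) and 91.7 CPM labelled WT (6351 UMIs), 1.86-fold lower, with a log2 ratio of -0.90 (-0.95 to -0.84). Socs1 was at 37.6 CPM labelled Dapl1-KO (3596 UMIs) and 60.5 CPM labelled WT (4188 UMIs), 1.61-fold lower, with a log2 ratio of -0.69 (-0.75 to -0.62). The libraries also differ in which CD8 states they hold. Naive or central memory cells, where both genes are highest, were 13.3% of CD8 T cells labelled Dapl1-KO and 25.4% labelled WT, and cycling cells were 42.2% labelled Dapl1-KO and 31.0% labelled WT. With the 9 CD8 states weighted equally, the log2 ratio was -0.59 for Socs3 and -0.37 for Socs1, and without cycling cells it was -0.86 and -0.52, so Socs1 no longer passed 1.5-fold under either choice.

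Socs3 ratios of single CD8 states were compared where each library had at least 50 cells. The lowest were -0.87 in the naive or central memory gate and -0.90 in the cells that met no other CD8 gate. The smaller granzyme D to G gate also had -0.87, with an interval that held 0 (-2.27 to 0.39). It rests on 8 UMIs labelled Dapl1-KO and 19 labelled WT. In naive or central memory CD8 T cells Socs3 was at 176 CPM labelled Dapl1-KO and 321 CPM labelled WT, a log2 ratio of -0.87 (-0.96 to -0.78). After every cell was thinned to 3000 UMIs, 37.8% of these cells labelled Dapl1-KO and 55.6% labelled WT had a Socs3 UMI, and before thinning 69.9% labelled Dapl1-KO and 80.9% labelled WT had one. Other messages of this gate moved with it. The immediate-early and handling list summed to 4554 CPM labelled Dapl1-KO and 8970 CPM labelled WT, and the naive list to 2180 CPM labelled Dapl1-KO and 2760 CPM labelled WT. Of the naive genes, Klf2 was at 1333 CPM labelled Dapl1-KO and 1670 CPM labelled WT. Il7r was at 296 CPM labelled Dapl1-KO and 488 CPM labelled WT, and S1pr1 at 178 and 210 CPM. Satb1 did not move with them, at 330 CPM labelled Dapl1-KO and 320 CPM labelled WT. The part of these messages in the Socs3 value was not tested. In effector CD8 T cells without PD-1 it was at 110 CPM labelled Dapl1-KO and 160 CPM labelled WT. In PD-1 TIM-3 CD8 T cells the log2 ratio was -0.11 with an interval that held 0 (-0.36 to 0.15). Socs1 was at 119 CPM labelled Dapl1-KO and 170 CPM labelled WT in naive or central memory CD8 T cells, a log2 ratio of -0.51 (-0.63 to -0.39), and in PD-1 TIM-3 cells its log2 ratio was 0.02 (-0.24 to 0.28). Over the 12 populations with at least 50 cells in each library (the granzyme D to G gate left out and the remaining CD8 T cells included), the ratio of Socs3 was below 0 in 10, with the whole interval below 0 in 8, and that of Socs1 was below 0 in 10, with the whole interval below 0 in 5. In activated CD4 T cells Socs3 stood the other way, at 131 CPM labelled Dapl1-KO and 109 CPM labelled WT.

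Cish had the higher level labelled Dapl1-KO in all 12 populations, with the whole interval above 0 in 8, and passed 1.5-fold in 2. The share of all genes past 1.5-fold was taken in the 4 broad gates alone. Counts over the 12 populations, here and for other members, therefore do not set the members apart from other genes. In effector CD8 T cells without PD-1 Cish was at 99.0 CPM labelled Dapl1-KO and 70.5 CPM labelled WT. The log2 ratio was 0.49 (0.26 to 0.72). In the CD8 T sum the ratio was 0.22 (0.15 to 0.29). Of the 4 broad gates, Socs2 was called in NK cells alone, where 4.36% of 4615 genes were called lower and 2.71% higher and 9 members were at the level required. NK cells had 71 Socs2 UMIs labelled Dapl1-KO and 120 labelled WT, or 19.8 CPM labelled Dapl1-KO and 42.9 CPM labelled WT, a log2 ratio of -1.12 (-1.56 to -0.68). The share of thinned NK cells with a Socs2 UMI was 6.05% labelled Dapl1-KO and 9.19% labelled WT, and before thinning 11.9% labelled Dapl1-KO and 15.7% labelled WT. In the same gate Il7r, the interleukin-7 receptor typical of naive T cells and helper-like innate lymphoid cells, was at 26.2 CPM labelled Dapl1-KO and 106 CPM labelled WT. The naive list, which holds Il7r, went the other way there, at 861 CPM labelled Dapl1-KO and 787 CPM labelled WT. Il7r alone does not show which cells differ, and the part of cells with Il7r in the Socs2 value was not tested. In naive or central memory CD8 T cells the share of thinned cells with a Socs2 UMI was 0.693% labelled Dapl1-KO and 0.906% labelled WT.

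**Figure D2:**
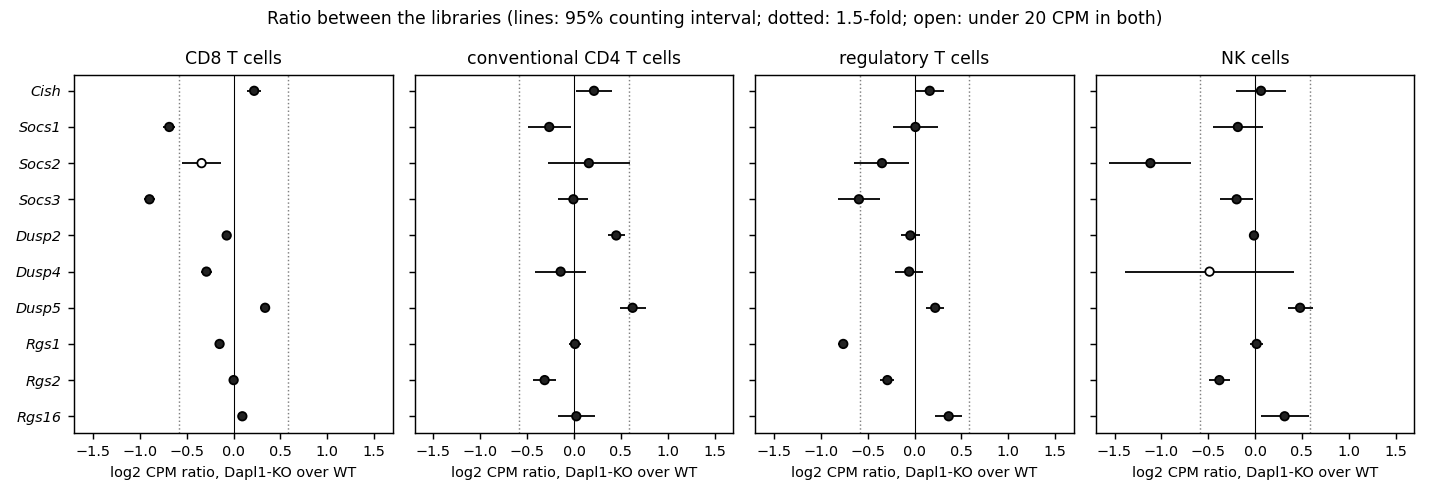
Ratio of CPM between the libraries for the 10 genes in the 4 broad gates, as log2 of Dapl1-KO over WT. Lines are 95% counting intervals, dotted lines mark 1.5-fold, and open circles mark genes under 20 CPM in both libraries. Points past the dotted lines are Socs1 and Socs3 in CD8 T cells, Dusp5 in conventional CD4 T cells, Socs3 and Rgs1 in regulatory T cells and Socs2 in NK cells.

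Dusp5 differed in the same direction in the populations with enough cells, and the other way in the small granzyme D to G gate. All 12 populations had more Dusp5 labelled Dapl1-KO than labelled WT, with the whole interval above 0 in each, at log2 ratios from 0.18 to 0.89. It passed 1.5-fold in 5 of them, with no share of all genes taken in single states. In conventional CD4 T cells, where 3.16% of 4836 genes were called higher and 3.78% lower, Dusp5 was the 1 member of 10 called higher and none was called lower. That call ended with all barcodes kept, with stricter cell filters, with gates read on thinned cells and after centring on the median of all genes, where the log2 ratio lay between 0.45 and 0.58. It was at 275 CPM labelled Dapl1-KO and 178 CPM labelled WT, a log2 ratio of 0.63 (0.49 to 0.76), and 53.8% of thinned cells labelled Dapl1-KO and 35.1% labelled WT had a Dusp5 UMI (before thinning, 69.7% labelled Dapl1-KO and 50.2% labelled WT). In naive or central memory CD8 T cells it was at 166 CPM labelled Dapl1-KO and 96.0 CPM labelled WT, a log2 ratio of 0.79 (0.67 to 0.92). In NK cells it was at 350 CPM labelled Dapl1-KO and 251 CPM labelled WT, and in PD-1 TIM-3 CD8 T cells at 219 CPM labelled Dapl1-KO and 184 CPM labelled WT. The 12 populations come from the same 2 libraries and do not replicate the difference. The granzyme D to G gate, too small to be among the 12, had 73.8 CPM labelled Dapl1-KO and 112 CPM labelled WT. This is the opposite direction and past 1.5-fold, at a log2 ratio of -0.61 (-1.12 to -0.11). It rests on 52 UMIs labelled Dapl1-KO and 103 labelled WT.

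Dusp2 split by state. It was at 800 CPM labelled Dapl1-KO and 555 CPM labelled WT in naive or central memory CD8 T cells, a log2 ratio of 0.53 (0.48 to 0.58). In PD-1 TIM-3 CD8 T cells it was at 493 CPM labelled Dapl1-KO and 583 CPM labelled WT, a log2 ratio of -0.24 (-0.31 to -0.18). The states as a whole did not lie on one side: the ratio was above 0 in 6 of the 12 populations and below 0 in 6. Dusp4 was lower labelled Dapl1-KO in 10 of the 12, with the whole interval below 0 in 3, 1 of them the naive CD8 gate where it was under 20 CPM in both libraries. It passed 1.5-fold in other PD-1 CD8 T cells, at 41.1 CPM labelled Dapl1-KO and 65.6 CPM labelled WT, a log2 ratio of -0.68 (-0.99 to -0.36). In cycling CD8 T cells it was at 52.5 CPM labelled Dapl1-KO and 68.6 CPM labelled WT, a log2 ratio of -0.39 (-0.46 to -0.31). The Dusp4 ratio of all CD8 T cells was -0.29, and among Y-linked cells alone it was 0.12.

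Rgs1 was called lower in regulatory T cells. There 4.27% of 4970 genes were called lower and 1.45% higher, and of the 10 members Rgs1 and Socs3 were called lower and none higher. Rgs1 was at 611 CPM labelled Dapl1-KO (4747 UMIs) and 1035 CPM labelled WT (7677 UMIs), a log2 ratio of -0.76 (-0.81 to -0.71), and 75.8% of thinned regulatory T cells labelled Dapl1-KO and 86.1% labelled WT had a UMI (before thinning, 90.7% labelled Dapl1-KO and 95.1% labelled WT). In conventional CD4 T cells it was at 1065 CPM labelled Dapl1-KO and 1057 CPM labelled WT. Socs3 in regulatory T cells was at 36.3 CPM labelled Dapl1-KO (282 UMIs) and 54.8 CPM labelled WT (406 UMIs), a log2 ratio of -0.59 (-0.82 to -0.37) that lies just past 1.5-fold. Messages of other cells differed in the same gate: 8 myeloid markers summed to 252 CPM labelled Dapl1-KO and 544 CPM labelled WT, and 6 melanocytic markers summed to 73.1 CPM labelled Dapl1-KO and 312 CPM labelled WT, while the B cell gene Ms4a1 was at 0 in both. A separate filter read other genes: Csf1r, C1qa, C1qb, Lyz2 and Cd68 for myeloid cells, and Pmel, Mlana, Dct and Tyrp1 for melanocytic cells. It removed 32 cells labelled Dapl1-KO and 24 cells labelled WT that reached its UMI minimum for either set. Cells with UMIs of the summed markers alone stayed in. After this filter the log2 ratio was -0.82 for Rgs1 and -0.45 for Socs3, which is under 1.5-fold. The Socs3 call also ended with all barcodes kept, with doublets kept, with gates read on thinned cells and after centring.

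Rgs2 had nearly the same level in the CD8 T sums, at 172.7 CPM labelled Dapl1-KO and 172.6 CPM labelled WT, a log2 ratio of 0.001 (-0.033 to 0.035). It was lower labelled Dapl1-KO in the other 3 broad gates. NK cells had 372 CPM labelled Dapl1-KO and 484 CPM labelled WT, a log2 ratio of -0.38 (-0.49 to -0.27). Conventional CD4 T cells had 231 CPM labelled Dapl1-KO and 287 CPM labelled WT, and regulatory T cells had 357 CPM labelled Dapl1-KO and 437 CPM labelled WT. Rgs16 was higher labelled Dapl1-KO in 8 of the 12 populations and, with no share of all genes taken in single states, passed 1.5-fold in 3. Those were the progenitor-like PD-1 CD8 T cells (200 CPM labelled Dapl1-KO and 133 CPM labelled WT), the naive or central memory CD8 T cells (30.3 CPM labelled Dapl1-KO and 16.2 CPM labelled WT) and the naive or central memory CD4 T cells (62.3 CPM labelled Dapl1-KO and 25.1 CPM labelled WT, on 43 UMIs labelled Dapl1-KO and 23 UMIs labelled WT). In PD-1 TIM-3 CD8 T cells, where the gene is highest, its log2 ratio was 0.09 (0.01 to 0.17).

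**Figure D3:**
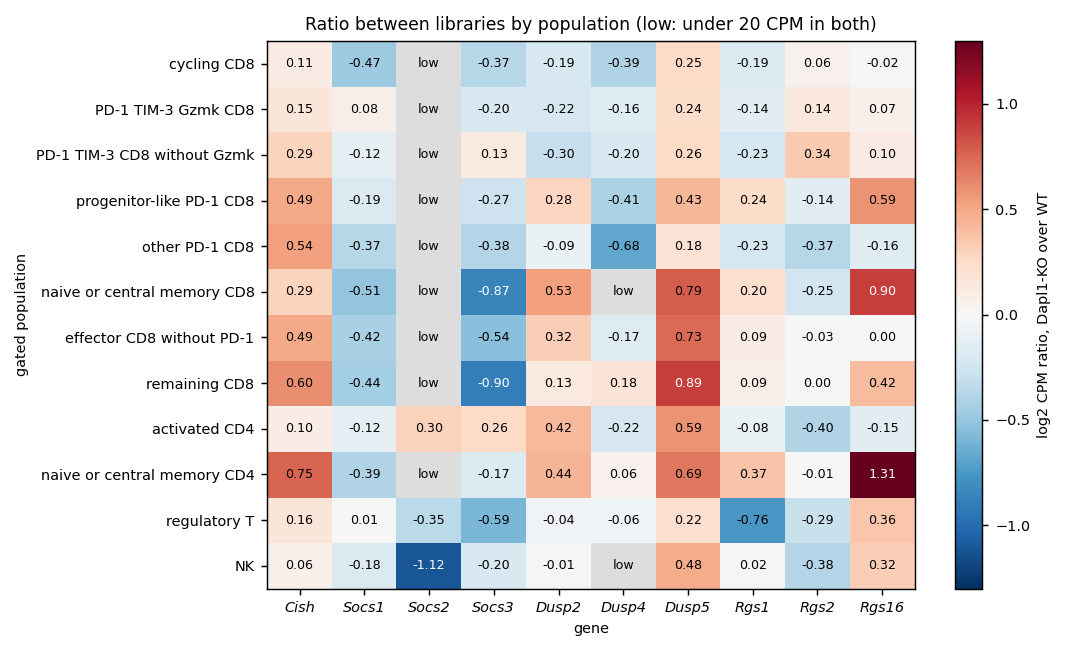
Log2 ratio of CPM, Dapl1-KO over WT, for each gene in the 12 populations with at least 50 cells in each library; red is higher labelled Dapl1-KO and blue is higher labelled WT, and grey cells were under 20 CPM in both libraries. The Dusp5 and Cish columns are red in every population, the Socs3 column is blue in 10 of 12, and Rgs1 in regulatory T cells stands at -0.76.

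The sex of the cells goes with the genotype label, so values within cells of 1 sex are given beside the pooled ones. Among CD8 T cells with a Y-linked UMI and no Xist or Tsix (4039 cells labelled Dapl1-KO and 640 labelled WT), Socs3 was at 46.7 CPM labelled Dapl1-KO and 108 CPM labelled WT, a log2 ratio of -1.21 (-1.32 to -1.11). Socs1 was at 34.2 CPM labelled Dapl1-KO and 69.4 CPM labelled WT, a log2 ratio of -1.02 (-1.15 to -0.89). Dusp5 was at 157 CPM labelled Dapl1-KO and 127 CPM labelled WT, a log2 ratio of 0.31 (0.22 to 0.40). The direction of these 3 genes in the CD8 T sum was the one in all cells. The make-up of these cells differed, with 497 of 4039 in the naive or central memory gate labelled Dapl1-KO and 193 of 640 labelled WT. In cycling CD8 T cells (1977 Y-linked cells labelled Dapl1-KO and 179 labelled WT) the Y-linked log2 ratio was 0.12 (-0.15 to 0.40) for Socs3 and -0.09 (-0.38 to 0.21) for Socs1, with intervals that held 0. Y-linked CD8 T cells also differed from Xist cells inside the library labelled WT. The log2 ratio of Y-linked over Xist was 0.40 for Socs3 and 0.33 for Socs1. For Dusp5 it was 0.03, with an interval that held 0 (-0.07 to 0.12). Single states did not share this direction: it was -0.49 for Socs3 and -0.38 for Socs1 in cycling cells, and -1.54 and -1.07 in PD-1 TIM-3 cells. The naive gate had 0.255 for Socs3 and 0.35 for Socs1. In naive or central memory CD8 T cells the Y-linked log2 ratio was -0.998 for Socs3, -0.78 for Socs1 and 1.01 for Dusp5. In PD-1 TIM-3 CD8 T cells (449 Y-linked cells labelled Dapl1-KO and 60 labelled WT) it was 1.32 for Socs3 and 0.96 for Socs1, the opposite direction. Of regulatory T cells only 22 labelled WT were Y-linked, against 481 labelled Dapl1-KO. On these, Rgs1 was at 585 CPM labelled Dapl1-KO and 1024 CPM labelled WT, and Socs3 was at 35.3 CPM labelled Dapl1-KO and 29.8 CPM labelled WT, a log2 ratio of 0.24 (-0.63 to 1.27). The animals behind the Y-linked and Xist cells are not given, so sex, animal and genotype label cannot be told apart in the pooled values.

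**Figure D4:**
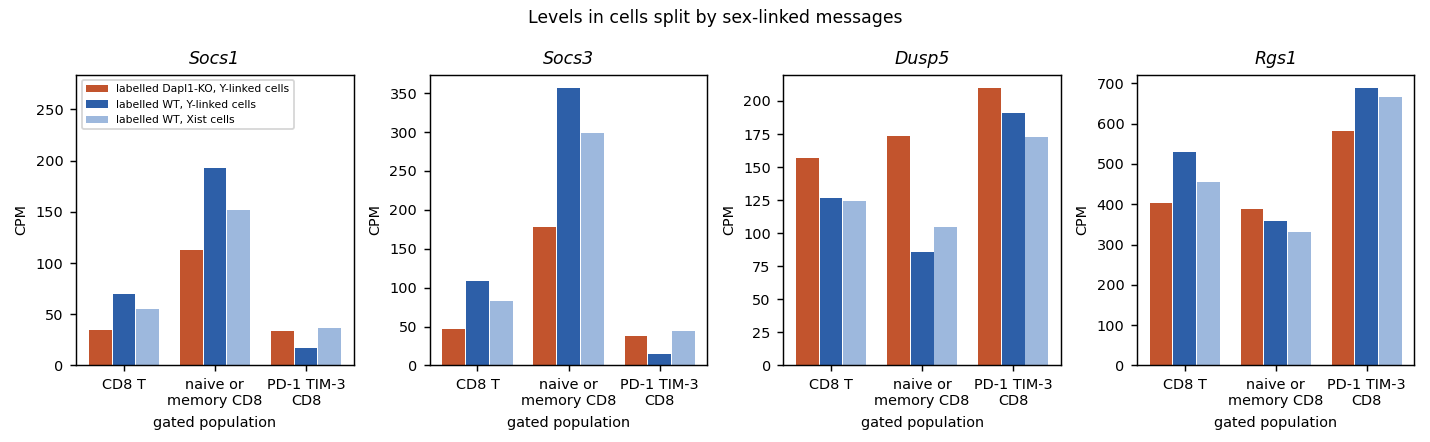
Level in CPM of Socs1, Socs3, Dusp5 and Rgs1 in 3 CD8 gates, for Y-linked cells labelled Dapl1-KO (red), Y-linked cells labelled WT (dark blue) and Xist cells labelled WT (light blue). Bars are single values of summed counts with no replicate. Socs3 of naive or central memory CD8 T cells is at 178 CPM in Y-linked cells labelled Dapl1-KO, 356 CPM in Y-linked cells labelled WT and 298 CPM in Xist cells labelled WT.

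Other genes of these pathways were taken from fixed lists and set beside the same measure over all genes. In CD8 T cells the median log2 ratio was 0.08 over all genes and -0.07 over the 9 members measured. Of 7 other SOCS and cytokine brakes measured, 1 was higher, Ptpn6, the phosphatase SHP-1, at 54.3 CPM labelled Dapl1-KO and 33.0 CPM labelled WT. None of 9 other MAP kinase brakes, 2 other RGS genes or 14 MAP kinase cascade genes passed 1.5-fold in CD8 T cells. Of 11 G-protein subunits 1 was higher, Gng2, at 245 CPM labelled Dapl1-KO and 134 CPM labelled WT. Of 18 JAK-STAT and common gamma-chain genes, 3 were higher and 1 was lower. The lower one was Il7r, at 65.0 CPM labelled Dapl1-KO and 124 CPM labelled WT.

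Immediate-early and heat shock genes, which respond to tissue handling as well as to signals, had lower levels labelled Dapl1-KO in CD8 T cells. Of 14 measured in CD8 T cells, 6 passed 1.5-fold lower and none higher, with a median log2 ratio of -0.40. The median was -0.36 in regulatory T cells, -0.10 in conventional CD4 T cells and 0.02 in NK cells. Hspa1a, an inducible HSP70 chaperone, was at 130 CPM labelled Dapl1-KO and 596 CPM labelled WT, and Hspa1b was at 90.1 CPM labelled Dapl1-KO and 365 CPM labelled WT. Of 15 measured in regulatory T cells 5 were lower and none higher, of 15 in NK cells 5 were lower and 1 higher, and of 15 in conventional CD4 T cells 4 were lower and 1 higher. This list moved in the same direction as Socs1 and Socs3 in CD8 T cells and as Rgs1 and Socs3 in regulatory T cells, and its part in those values was not tested.

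The number of these messages found in a cell depends on how deeply it was read. No gate is known to lack all 10 genes, so the share of cells that free RNA alone would give was not measured. Of the 10 genes, a cell thinned to 3000 UMIs had on average 3.04 detected among CD8 T cells labelled Dapl1-KO and 3.01 among those labelled WT. Before thinning the averages were 5.55 labelled Dapl1-KO and 5.34 labelled WT. NK cells had 3.90 labelled Dapl1-KO and 3.87 labelled WT, regulatory T cells had 3.36 labelled Dapl1-KO and 3.58 labelled WT, and conventional CD4 T cells had 3.62 labelled Dapl1-KO and 3.13 labelled WT. Socs1 and Socs3 were found in the same naive or central memory CD8 T cells more often than the product of their shares: 12.05% of thinned cells labelled Dapl1-KO and 25.3% labelled WT had both, against products of 10.2% labelled Dapl1-KO and 20.8% labelled WT. Dusp4 and Rgs16 did so in conventional CD4 T cells, where 4.62% of cells labelled Dapl1-KO and 6.04% labelled WT had both, against products of 2.52% labelled Dapl1-KO and 2.54% labelled WT. Some other pairs of that gate lay above their product and some below it. The gate pools activated and naive cells, which labelled WT had 70.0 and 30.6 CPM of Dusp4 and 126 and 25.1 CPM of Rgs16. The part of this mixing was not tested. In regulatory T cells the same pair was found in 7.39% of cells labelled Dapl1-KO against a product of 7.03%, and in 7.20% of those labelled WT against 6.98%.

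Among 5966 candidate genes, those whose log2 levels followed each member most closely over 24 points (12 populations in each of the 2 libraries) were named by correlation. For Socs3 these were Foxp1, Klf2 and Arhgef18, at r from 0.966 to 0.979, of which Foxp1 and Klf2 encode transcription factors of resting T cells. For Socs1 they were Usp3, Tnrc6c and Arl4c, from 0.956 to 0.978. Rgs16 was followed by Perp, Lag3 and Atxn1, from 0.927 to 0.949; Lag3 is an inhibitory receptor of exhausted cells. For Dusp4 they were Sdcbp2, Twsg1 and Mxi1, from 0.912 to 0.938. Cish went with Cd44, Whamm and Ttc39b, from 0.872 to 0.926, and Dusp5 with Ifngr1, Gfod1 and Cd44, from 0.853 to 0.874; CD44 is the adhesion receptor of antigen-experienced T cells. Dusp2 went with Klf10, Mef2a and Prdx6, from 0.903 to 0.906. Of the other members, Socs2 went with Csnk1g2, Aplp2 and Mvb12b (0.818 to 0.874), Rgs2 with Serinc3, Spty2d1 and Tex2 (0.849 to 0.882), and Rgs1 with Ramac, Ubxn4 and Ccng2 (0.787 to 0.85). The points share libraries, depth and gates.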

How the data were processed

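Single-cell 3′ (version 3 chemistry) libraries were counted with Cell Ranger 5.0.0 against mm10 and GRCm38, per the submitters' processing notes. The tables deposited by the authors hold raw UMI counts (whole numbers, not normalized) and a smallest barcode total of 500. The sources used here do not give the number of animals. Smaller copies of shared barcodes (larger copy at least 2 times the UMIs) and 21 barcodes without one were dropped, 36.4% of barcodes labelled Dapl1-KO and 36.0% labelled WT. Cells needed 500 or more genes and no more than 10% mitochondrial counts. The automatic threshold of Scrublet (scanpy 1.11.5) called 0 doublets, so the highest scores were removed at 0.8% per 1000 cells (1058 cells labelled Dapl1-KO and 873 labelled WT).

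Gates read 1 or more UMIs of each named gene. CD8 T cells had Cd8a or Cd8b1 and CD3 without Cd4 or Foxp3, conventional CD4 T cells Cd4 and CD3 without Cd8 or Foxp3, regulatory T cells Foxp3 and CD3 without Cd8, and NK cells Ncr1 or Klrb1c without CD3, Cd4, Cd8b1 or Foxp3. CD8 states were taken in order: cycling (2 or more UMIs over Mki67, Top2a, Birc5, Ube2c and Cdk1), granzymes D to G at 1% or more of UMIs, PD-1 TIM-3 with and without Gzmk, progenitor-like PD-1, other PD-1, naive or central memory (Ccr7 or another marker, with Tcf7 or Lef1, no Pdcd1 or Havcr2), effector without PD-1 (Ly6c2 or Gzma), and remaining. CD4 T cells were split into naive or central memory and activated. Gates read at different depths can lose a cell whose marker was missed, so gating was repeated on cells thinned to 3000 UMIs. Counts were summed per gate and divided by the gate's total, to CPM. Intervals are exact: Poisson for CPM, Clopper-Pearson for shares, conditional binomial for ratios (scipy 1.17.1). The ratio calculation was tested on simulated counts. With 1 library per label no p-value exists.

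The members and all gene lists were chosen with earlier results of these data known. Named genes are the 10 members, the 2 members of each list past 1.5-fold with the largest log2 ratio in CD8 T cells, and the 3 genes most correlated with each member (log2(CPM + 1)). Other genes named in the text were picked after their values were seen. A few genes of the gates and lists are not reported here.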

Additional observations from a re-analysis of the deposited data

Results flagged for a closer look

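For 6 genes the log2 ratio of Dapl1-KO over WT lay on opposite sides of 0 in 2 gated populations, with both counting intervals clear of 0, and the difference between populations was not tested. Socs2 differed by 3.54 between other PD-1 CD8 T cells (2.43, on 25 UMIs labelled Dapl1-KO and 3 labelled WT) and NK cells (-1.12). In other PD-1 CD8 T cells it was under 20 CPM in both libraries, at 5.98 CPM labelled Dapl1-KO and 1.11 CPM labelled WT. The 25 UMIs lay in 15 cells, with 9 in the highest cell, a spread between cells that the counting interval leaves out. Rgs16 differed by 1.47 between naive or central memory CD4 T cells (1.31, on 43 UMIs labelled Dapl1-KO and 23 labelled WT) and other PD-1 CD8 T cells (-0.16). Socs3 differed by 1.16 between activated CD4 T cells (0.26) and the remaining CD8 T cells (-0.90). Rgs1 differed by 1.13 between naive or central memory CD4 T cells (0.37) and regulatory T cells (-0.76). Dusp2 differed by 0.825 between naive or central memory CD8 T cells (0.53) and PD-1 TIM-3 CD8 T cells without Gzmk (-0.30). Rgs2 differed by 0.736 between PD-1 TIM-3 CD8 T cells without Gzmk (0.34) and activated CD4 T cells (-0.40). In each case the pair with the largest gap is given.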

How the results depend on the processing

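Each label has 1 library, so no replicate could be left out. No paired analysis was possible because each label has 1 library and no result comes from a test. The values rest on counting depth alone: Socs2 was under 20 CPM in CD8 T cells and Dusp4 in NK cells, and the direction of ratios changed between settings for 17 of 40 member ratios in the 4 broad gates. Among them were Socs2 in CD8 T cells (-0.341, up to 0.252), Dusp4 in CD8 T cells (-0.289, up to 0.12), Socs2 in regulatory T cells (-0.348, up to 1.009) and Rgs2 in regulatory T cells (-0.29, up to 0.085). Of these 40 ratios, 6 moved beyond their counting interval with all deposited barcodes kept, 4 with doublets kept, none with stricter cell filters, 14 with gates read on thinned cells, 15 with the mean over cells, 11 after centring on the median of all genes, 5 without cells carrying myeloid or melanocytic UMIs and 30 among Y-linked cells. Of the 10 in CD8 T cells, 9 moved without cycling cells and 8 with equal weight of the states. Among the ratios past 1.5-fold, only Socs3 of regulatory T cells changed sign under any of these, to 0.244 among Y-linked cells (22 labelled WT). The 2 settings on cells with other lineages' UMIs and on CD8 T cells without cycling cells were chosen after the data were seen. The setting on other lineages' UMIs was the filter described above for regulatory T cells, which kept cells below its UMI minimum.

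The number of members lower in CD8 T cells, 2, was 1 with equal weight of the states, 1 without cycling cells and 0 at a limit of 2-fold, and 1 member (Dusp5) was higher at a 25% limit. In conventional CD4 T cells the 1 higher member became 0 with all barcodes, with stricter filters, with thinned gates, after centring and at 2-fold, 2 with the mean over cells and at a 25% limit, and 4 among Y-linked cells, where 3 were lower. In regulatory T cells the 2 lower members became 1 (Rgs1) with all barcodes, doublets kept, thinned gates, Y-linked cells, centring or without cells carrying myeloid or melanocytic UMIs, and 0 at 2-fold, while 6 were higher among Y-linked cells and 1 at a 25% limit. In NK cells, 1 member was higher with the mean over cells, among Y-linked cells and at a 25% limit, and 4 were lower among Y-linked cells and 2 at a 25% limit. Y-linked cells labelled WT numbered only 53 conventional CD4 T, 22 regulatory T and 17 NK cells. The share of all genes called under each other setting is not given here, so the counts in this paragraph do not set the members apart from other genes. Between populations, 4 members were higher in PD-1 TIM-3 over naive cells at 1.5-fold. In regulatory over conventional CD4 T cells, 1 was lower with doublets kept, with thinned gates and with the mean over cells, 0 at 3-fold, and 2 were higher at 1.5-fold. In NK over CD8 T cells, 3 were higher with the mean over cells and 2 at 3-fold, with 1 lower at 3-fold. The shifts at other fold limits come from the limits themselves. The cause of the other shifts was not tested, and neither was the part of the smaller number of Y-linked cells.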
